A study of Homo sapiens with 14 samples.

Results

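The fibrils of hyaline cartilage are built from collagens II, IX and XI, whose chains are encoded by COL2A1, COL9A1, COL9A2, COL9A3, COL11A1 and COL11A2. These 6 genes were followed through chondrogenic culture, chosen by symbol as the rows whose Ensembl identifier maps to them, 6 of the 60587 genes in each table. RNA came from whole cartilage pellets made from the established human pluripotent line WA01 (H1), which was derived from an embryo, and was sequenced at day 21 (4 libraries), day 30 (5 libraries) and day 45 (5 libraries). All 3 groups had the same line and the same chondrogenic medium and differed in days of culture, with no undifferentiated or untreated group, and 1 cell line stands behind all 14 libraries. One library, titled day 45 replicate 1, carries a treatment label of 30 days; it was placed by its title, and results that change with this are given with both placements. The labels do not say whether replicates were separate differentiations or pooled pellets, so each p-value measures the spread between these libraries, which may be technical.

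Collagen II is a homotrimer of the COL2A1 chain and forms the body of the fibril. Collagen XI, which in cartilage contains the COL11A1 and COL11A2 chains and another chain derived from COL2A1, sits in the fibril core and limits its diameter. Collagen IX is a heterotrimer with 1 chain from each of COL9A1, COL9A2 and COL9A3, and lies along the fibril surface, where it is crosslinked to collagen II. SOX9, together with SOX5 and SOX6, is the textbook activator of these genes in chondrocytes.

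The 6 genes lie at 6 separate places in GRCh38 (gene limits from GENCODE 29). COL2A1 (ENSG00000139219) spans chr12:47972965-48004554 on the minus strand. COL9A1 (ENSG00000112280) spans chr6:70215061-70303083, COL9A2 (ENSG00000049089) chr1:40300487-40317813 and COL11A1 (ENSG00000060718) chr1:102876467-103108872, all on the minus strand. COL9A3 (ENSG00000092758) is on the plus strand at chr20:62816244-62841159, and COL11A2 (ENSG00000204248) on the minus strand at chr6:33162681-33192499. The library kit does not mark strand, so reads within bases shared by overlapping genes cannot be told apart by strand. The end of COL9A3 overlaps TCFL5 on the opposite strand, only at chr20:62841115-62841159. TCFL5 as a whole held 504 to 943 counts per library. The genes that overlap COL9A1 and COL11A1 held at most 1 and 2 counts.

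COL9A1 and COL9A2 encode chains of 1 molecule, and the values below separate them over time, so the DNA before their start sites is shown. RefSeq promoter sequences (GRCh38.p14) were found for 4 of the 6 genes, all but COL2A1 and COL9A3. Both stretches run 5′ to 3′ on the minus strand; the COL9A2 stretch is chr1:40317295-40317536, ending at the annotated 5′ UTR of the coding transcripts and overlapping exons of 2 retained-intron transcripts, and the COL9A1 stretch is chr6:70303085-70303334, before the farther upstream of its 2 listed starts. Capitals mark matches, on either strand, to ACAAAG, a SOX-type motif (reverse complement CTTTGT), and to GGGCGG, the GC box (reverse complement CCGCCC). The 2 adjoining GC boxes near the end of the COL9A2 stretch overlap by 1 base.
COL9A2: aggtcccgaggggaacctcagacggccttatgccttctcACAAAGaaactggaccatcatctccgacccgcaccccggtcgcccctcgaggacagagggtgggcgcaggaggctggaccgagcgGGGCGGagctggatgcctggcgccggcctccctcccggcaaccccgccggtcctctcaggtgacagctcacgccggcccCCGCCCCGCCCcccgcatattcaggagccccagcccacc
COL9A1: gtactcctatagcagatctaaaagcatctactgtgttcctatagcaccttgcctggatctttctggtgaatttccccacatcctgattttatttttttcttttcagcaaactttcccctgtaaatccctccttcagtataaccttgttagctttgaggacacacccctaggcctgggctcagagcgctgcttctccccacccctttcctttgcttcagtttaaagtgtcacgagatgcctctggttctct

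In the 250 bases before the start, COL9A2 had a GC content of 71.6%, with 22 CpG dinucleotides, 1 ACAAAG and 3 GC boxes. COL9A1 had a GC content of 45.6% and 2 CpG dinucleotides over the same length, with none of the 4 motifs searched. The other listed start of COL9A1, at which a shorter transcript begins, had a GC content of 63.2% and 12 CpG dinucleotides in its 250 bases, nearer to COL9A2, and none of the 4 motifs either. Besides both motifs above, these were a second SOX-type motif, AACAAT on either strand, and the TATA-type motif, TATAAA on either strand; apart from the adjoining GC boxes no matches overlapped. Among 35116 promoter windows of 250 bases in RefSeq, 13.7% held the first SOX-type motif, 42.6% the GC box, 8.98% the second SOX-type motif and 10.7% the TATA-type motif, and the median GC content was 58.0%. A match describes letters in this window and is no evidence of binding.

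Depth ranged from 18183785 to 33660676 expected counts per library, the read counts that RSEM assigns to genes. Day 30 libraries 3, 4 and 5 stood apart: across genes, their deviation from the mean of all libraries correlated with effective transcript length at a Spearman rho of -0.428, -0.518 and -0.466, against -0.012 and -0.073 in day 30 libraries 1 and 2 and 0.119 to 0.255 in the rest. Fits without those 3 libraries, and with a correction of each library for its trend with length, kept the rise of all 6 collagen genes from day 21 to day 30: COL2A1 gave a log2 change of 2.32 and 2.38 and COL9A2 1.25 and 1.26. Where either fit changed a call of these genes, its value stands beside the result. The summed level of 6 cartilage markers, which include ACAN, MATN1 and SOX9, as CPM (counts scaled to a common library size), lay between 4552 and 6673 at day 21, between 14560 and 37270 at day 30 and between 41340 and 51840 at day 45. All 6 markers were detected on all 3 days, but they did not move alike: at day 45 against day 21 ACAN rose by 3.61 ± 0.30 on the log2 scale (edgeR adjusted p = 1.95e-08), while CNMD fell by 0.91 ± 0.16 (0.000115). Fibrous tissue markers (7 genes, among them POSTN and COL3A1) had sums of 22390–25890, 17330–24120 and 20150–25510 CPM on the 3 days, most of it from COL3A1, COL1A2 and POSTN, none of which was called at day 45 against day 21. The less abundant THY1 and LUM fell by 2.04 ± 0.17 and 1.04 ± 0.16, and DCN rose by 1.04 ± 0.16 (edgeR adjusted p = 2.68e-08, 2.7e-05 and 3.14e-05). For the notochord, which also makes collagen II, 6 markers summed to between 50.2 and 83.1 CPM per library, most of it KRT8, while TBXT had 0 counts in all 14 libraries. At day 45 against day 21 KRT8 fell by 0.40 ± 0.13 (edgeR adjusted p = 0.011) and KRT18 was not called. KRT19 rose by 2.13 ± 0.31 (edgeR adjusted p = 1.59e-05), from 2.68 to 11.7 CPM. Tendon markers (3 genes) summed to 99.7–123.5, 52.3–74.8 and 45.9–59.4 CPM and bone markers (5 genes) to 75.3–186.8, 60.9–127.2 and 31.0–45.0 CPM on the 3 days. Both sums were lower at day 45 than at day 21 without overlap. The tendon genes SCX and TNMD, with log2 changes of -3.46 ± 0.22 and -1.93 ± 0.48, and the bone gene DMP1, with -2.51 ± 0.31, were called lower (edgeR adjusted p = 1.13e-09, 0.00333 and 4.11e-06). Most of the bone sum was DMP1, which averaged 138.6 CPM at day 21 and 24.3 CPM at day 45. The bone genes did not move alike: PHEX fell by 1.015 ± 0.20 (edgeR adjusted p = 0.000326). SP7 rose by 3.61 ± 0.30, from 0.78 to 9.62 CPM (edgeR adjusted p = 2.67e-08). Muscle (3 genes) and neural markers (4 genes) summed to under 20 CPM in every library. The muscle sum was 1.4–2.8, 6.4–11.4 and 8.4–18.8 CPM on the 3 days. Most of it was DES, which rose by 2.68 ± 0.25 by day 45 (edgeR adjusted p = 8.81e-08). Of the neural genes, STMN2 and SOX10, at 0.70 and 0.33 CPM at day 21, were called lower (edgeR adjusted p = 0.000387 and 0.0132), and TUBB3 was not called. The part of other cell types in the changes was not tested. In whole-pellet RNA, a change in the number of chondrocytes and a change in RNA per chondrocyte cannot be told apart.

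All 6 collagen genes were measured far above the low-count filter, which 17838 genes passed. Their reads together made up 6.21% ± 0.502 (SD, n = 4) of all counts at day 21, 16.6% ± 4.18 (n = 5) at day 30 and 16.6% ± 2.52 (n = 5) at day 45. Within day 30 this share ranged from 10.7% in library 5 to 20.8% in library 1. At day 45 library 1 reached 20.8%, and the other 4 libraries lay between 14.7% and 16.3%.

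**Figure D1:**
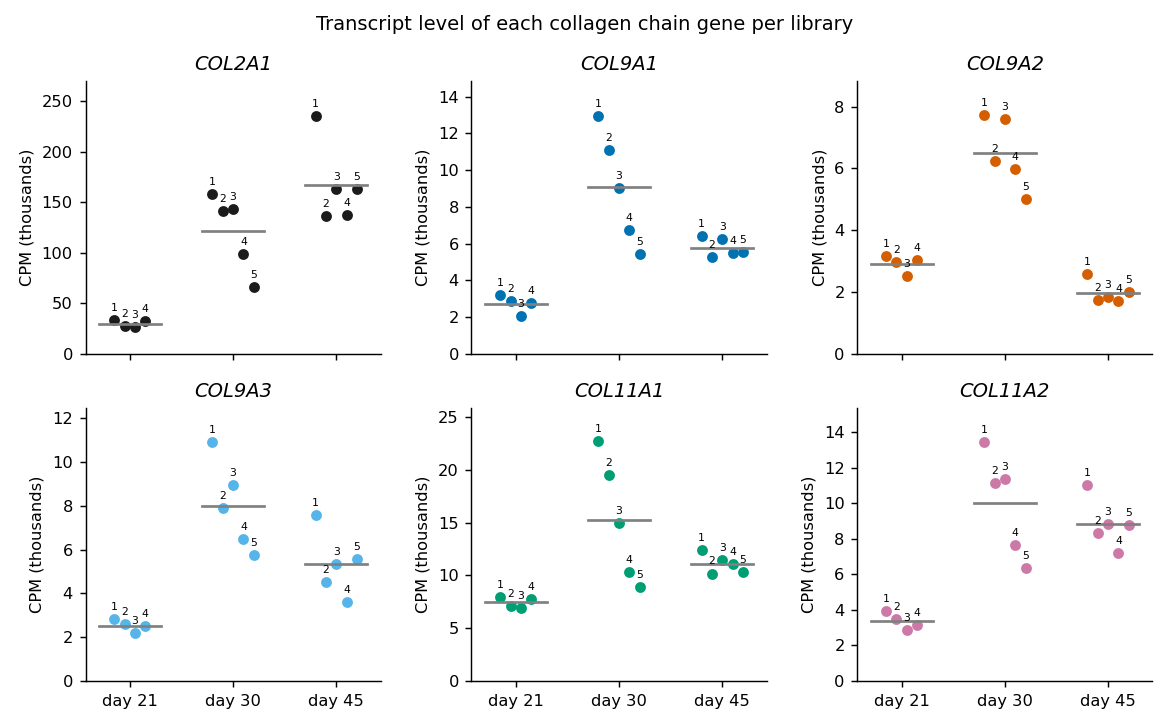
Level of each of the 6 collagen genes by day, in CPM scaled by TMM (one panel per gene; the linear axis starts at 0 and is divided by 1000). Points are libraries with their replicate number and grey lines are group means. All day 30 libraries lie above all day 21 libraries in every panel, while at day 45 COL9A2 falls back among or below the day 21 libraries.

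The body of the fibril comes first. COL2A1, the collagen II chain, stood at 33639, 27392, 26482 and 32082 CPM in the 4 day 21 libraries, in CPM scaled by TMM, the trimmed mean of M-values. At day 30 its level was 158300, 141510, 143400, 99223 and 66537 CPM in libraries 1 to 5, and at day 45 it was 235090, 136100, 163560, 137580 and 162960 CPM. Every day 30 and day 45 library lay above every day 21 library, while days 30 and 45 overlapped. On the edgeR log2 scale COL2A1 was higher at day 30 than at day 21 by 2.03 ± 0.25 (SE, edgeR quasi-likelihood adjusted p = 3.47e-06), or 4.07-fold. Between days 30 and 45 the difference of 0.46 ± 0.22 did not pass (edgeR adjusted p = 0.0889); without day 30 library 1 it was 0.57 and passed (edgeR adjusted p = 0.041). Over the whole interval COL2A1 rose 5.59-fold, a log2 change of 2.48 ± 0.25 (edgeR adjusted p = 2.36e-07).

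Among the chains of collagen IX, COL9A1, whose long form carries a large globular domain that projects from the fibril, had 3212, 2846, 2064 and 2757 CPM at day 21. Its day 30 libraries held 12951, 11106, 9029, 6742 and 5443 CPM, and its day 45 libraries 6408, 5250, 6221, 5483 and 5519 CPM. Day 21 was below both later days without overlap, and day 45 lay at the low end of the day 30 range. COL9A1 rose 3.33-fold from day 21 to day 30 (log2 1.74 ± 0.22, edgeR adjusted p = 4.38e-06). It fell by 0.65 ± 0.20 on the log2 scale from day 30 to day 45 (edgeR adjusted p = 0.00973). That fall was -0.50 on log2(TPM + 1), where limma's adjusted p was 0.0589. At day 45 the gene was still 2.12-fold above day 21 (log2 1.09 ± 0.21, edgeR adjusted p = 0.000303).

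COL9A3, another collagen IX chain, held 2814, 2592, 2180 and 2490 CPM at day 21. At day 30 the libraries read 10897, 7922, 8971, 6493 and 5739 CPM, and at day 45 they read 7578, 4519, 5356, 3615 and 5566 CPM. The order of the days was that of COL9A1. The rise to day 30 was 3.18-fold (log2 1.67 ± 0.21, edgeR adjusted p = 5.25e-06), and the gene then fell by 0.59 ± 0.19 on the log2 scale (edgeR adjusted p = 0.0154). COL9A3 was 2.12-fold higher at day 45 than at day 21 (log2 1.08 ± 0.21, edgeR adjusted p = 0.000267).

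COL9A2, the remaining chain of the same trimer, took a different course after day 30. It began at 3169, 2956, 2504 and 3033 CPM at day 21 and reached 7724, 6229, 7611, 5993 and 4999 CPM at day 30. By day 45 it had 2591, 1734, 1842, 1719 and 2014 CPM. No day 45 library came near a day 30 library, and 4 of the 5 lay below every day 21 library; day 45 library 1 lay above the lowest of day 21. COL9A2 rose 2.23-fold to day 30 (log2 1.16 ± 0.16, edgeR adjusted p = 1.14e-05). It then fell 3.29-fold to day 45 (log2 -1.72 ± 0.15, edgeR adjusted p = 1.36e-07). Day 45 was below day 21 by 1.47-fold, a log2 change of -0.56 ± 0.15 (edgeR adjusted p = 0.00504).

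For collagen XI, COL11A1 had the smallest fold rise of the 6 from day 21 to day 30, with all libraries and no length correction. This rank was lost without day 30 libraries 3 to 5 and with the length correction, where COL9A2 rose least. The log2 rise of COL9A2 was then 1.252 and 1.257, beside 1.498 and 1.413 for COL11A1. The libraries held 7949, 7087, 6902 and 7797 CPM of COL11A1 at day 21, then 22706, 19476, 14958, 10322 and 8877 CPM at day 30. At day 45 the values were 12426, 10176, 11440, 11081 and 10349 CPM. Both later days were above day 21 in every library, and the day 30 range enclosed the day 45 range. COL11A1 rose 2.05-fold from day 21 to day 30 (log2 1.04 ± 0.22, edgeR adjusted p = 0.000791). The later difference of -0.46 ± 0.20 did not pass (edgeR adjusted p = 0.0641), but without day 30 libraries 3 to 5 it was -0.94 and passed (edgeR adjusted p = 3.23e-05). With the length correction it was -0.76 and passed too (edgeR adjusted p = 0.000372). At day 45 the gene was 1.49-fold above day 21 (log2 0.58 ± 0.22, edgeR adjusted p = 0.0315). That call was lost with day 45 library 1 placed at day 30 (0.53, edgeR adjusted p = 0.0844) or left out (0.54, 0.0628), without day 21 library 2 (0.0738) or 3 (0.073), without day 45 library 3 (0.0538), and without a low-count filter (0.0638). On log2(TPM + 1) the day 45 difference from day 21 was 0.08 (limma adjusted p = 0.783), where the median over all genes tested was -0.34.

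COL11A2, the other collagen XI gene, stood at 3961, 3495, 2890 and 3148 CPM at day 21. At day 30 it held 13431, 11132, 11391, 7635 and 6354 CPM, and at day 45 11017, 8340, 8845, 7193 and 8796 CPM. Both later days were above day 21 in every library and overlapped each other. The gene rose 2.96-fold to day 30 (log2 1.57 ± 0.20, edgeR adjusted p = 6.38e-06). Its day 45 level differed from day 30 by -0.18 ± 0.18 (edgeR adjusted p = 0.43). Without day 30 libraries 3 to 5 the difference was -0.49 and passed (edgeR adjusted p = 0.0234). With the length correction it was -0.57 and passed too (edgeR adjusted p = 0.00394). Relative to day 21 COL11A2 was 2.62-fold higher at day 45 (log2 1.39 ± 0.20, edgeR adjusted p = 1.46e-05). In all 6 genes the lowest day 30 level was in library 5.

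**Figure D2:**
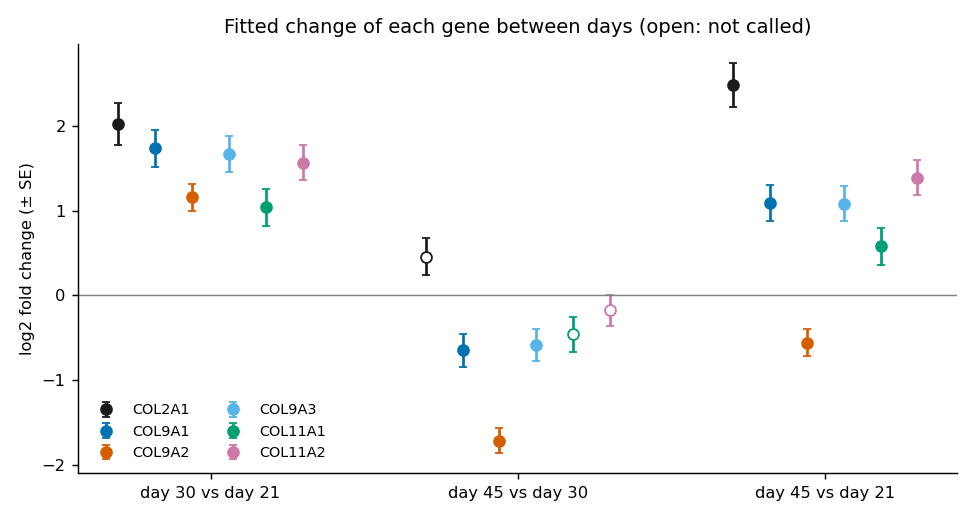
Log2 fold change (points) with SE (bars) for each collagen gene in the 3 comparisons of days, from edgeR; open points were not called. From day 21 to day 30 all 6 points lie above 0; from day 30 to day 45 COL9A2 lies lowest at -1.72 and COL2A1 highest at 0.46.

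Counted together, 6 of 6 genes were called higher at day 30 than at day 21, where 27.2% of all genes tested were called higher and 27.1% lower (edgeR adjusted p under the 0.05 threshold). From day 30 to day 45, 3 genes were lower, 0 were higher and 3 were not called, beside 28.7% of all genes lower and 27.6% higher. The 3 called genes encode the 3 chains of collagen IX. Leaving out day 30 libraries 3 to 5, or correcting each library for its trend with transcript length, brought the lower calls to 5, with COL11A1 and COL11A2 added. At day 45 against day 21, 5 genes were higher and 1, COL9A2, was lower, beside 27.1% higher and 30.5% lower over all genes. The median log2 change of the 6 was 1.62, -0.52 and 1.08 in these 3 comparisons, beside 0.02, -0.04 and -0.05 over all genes tested. On log2(TPM + 1) the share of all calls that were higher was 16.5% for day 30 against day 21, in place of 50.1%, and 19.7% for day 45 against day 21, in place of 47.0%. The median log2 change over all genes tested on that scale was -0.35 and -0.34 in those 2 comparisons.

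The later change minus the earlier change was negative and called for all 6 genes, beside 27.5% of all genes lower and 25.3% higher. COL9A2 had the most negative value, -2.88 ± 0.25 (edgeR adjusted p = 2.55e-07), and COL11A1 the least, -1.50 ± 0.35 (edgeR adjusted p = 0.00198). This order changed without day 30 libraries 3 to 5. COL9A1 was then the most negative at -3.21, beside -3.08 for COL9A2, and COL2A1 the least at -2.17, beside -2.44 for COL11A1. The 2 changes share the day 30 libraries, so a high day 30 enters both.

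Levels of different genes were compared per length, in TPM, the length-corrected share of transcripts that RSEM reports. At day 21 the order was COL2A1 at 13420 ± 986 TPM (SD, n = 4), COL11A1 at 3013 ± 181, COL9A1 at 2595 ± 408, COL9A3 at 2370 ± 166, COL9A2 at 2355 ± 113 and COL11A2 at 1178 ± 126. The ranges of the 3 collagen IX genes overlapped, and COL9A1 overlapped COL11A1 as well. At day 30 the order was COL2A1 at 42190 ± 15200 TPM (SD, n = 5), COL9A1 at 6405 ± 2570, COL9A3 at 5825 ± 1580, COL11A1 at 5422 ± 2470, COL9A2 at 3851 ± 854 and COL11A2 at 2865 ± 725, and each gene below COL2A1 overlapped its neighbours. At day 45 it was COL2A1 at 55100 ± 11300 TPM (SD, n = 5), COL9A1 at 4237 ± 293, COL9A3 at 3628 ± 816, COL11A1 at 3191 ± 242, COL11A2 at 2252 ± 251 and COL9A2 at 1190 ± 168. COL9A2 had moved to the bottom of the order, while the ranges of COL9A1, COL9A3 and COL11A1 overlapped in turn. COL2A1 supplied 53.8% ± 1.44 of the TPM of the 6 genes at day 21, 62.97% ± 2.45 at day 30 and 78.93% ± 1.69 at day 45.

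The 3 collagen IX genes, whose products join in 1 trimer, started in near-equal amounts. In TPM, the COL9A3 to COL9A2 ratio was 1.03, 1.02, 1.01 and 0.953 in the day 21 libraries. It was 1.63, 1.52, 1.48, 1.43 and 1.45 at day 30 and 3.31, 2.93, 3.29, 2.48 and 3.12 at day 45. With libraries placed by title, the 3 days formed 3 separate ranges with no overlap. Each of the 3 differences was then as extreme as an exact two-sided permutation test allows (p = 0.00794, adjusted p = 0.0127 over 24 ratio tests). With day 45 library 1, at 3.31, placed at day 30, days 30 and 45 overlapped. Their log2 difference was 0.78 in place of 1.01 (exact permutation adjusted p = 0.0762). The COL9A2 to COL9A1 ratio fell from 0.915 (geometric mean) at day 21 to 0.631 at day 30 and 0.279 at day 45 (exact permutation adjusted p = 0.0238, and 0.0127 for the later step). The first step lost its call when any 1 of the 4 day 21 libraries was left out (exact permutation adjusted p from 0.0714 to 0.0952). Without day 30 libraries 3 to 5 its log2 difference was -0.87 in place of -0.54 (exact permutation adjusted p = 0.0889). No call was possible there, as the smallest p for 4 against 2 libraries is 0.0667.

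COL9A3 to COL9A1 gave geometric means of 0.921, 0.945 and 0.841, and no pair of days passed (exact permutation p from 0.444 to 0.865). As shares of collagen IX TPM, COL9A1, COL9A2 and COL9A3 supplied 35.29% ± 2.60, 32.26% ± 1.41 and 32.44% ± 1.45 at day 21 (SD, n = 4). At day 45 they supplied 47.15% ± 5.43, 13.13% ± 0.78 and 39.72% ± 5.03 (SD, n = 5). COL9A2 held between 11.85% and 13.91% in the day 45 libraries and between 30.63% and 33.96% in the day 21 libraries.

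**Figure D3:**
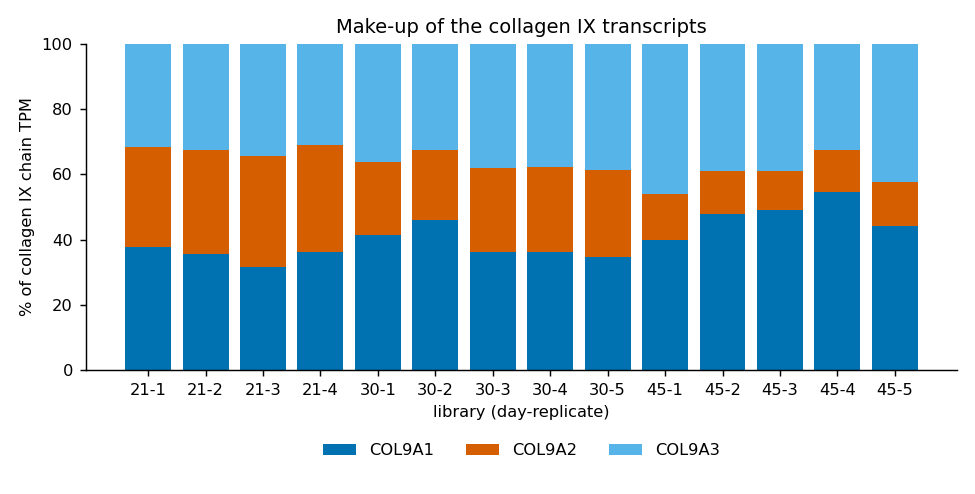
Share of collagen IX TPM supplied by COL9A1, COL9A2 and COL9A3 in each of the 14 libraries (percent, stacked bars that sum to 100). The COL9A2 share narrows from about equal with the other chains at day 21 to 11.85% to 13.91% at day 45.

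Relative to COL2A1, the COL9A1 and collagen XI transcripts became scarcer. In TPM there was 1 COL9A1 per 5.21 COL2A1 at day 21, per 6.63 at day 30 and per 12.8 at day 45 (exact permutation adjusted p = 0.0448 for the first step, 0.0127 for the second). The first step, -0.35 on the log2 scale, was not called on expected counts (-0.28, exact permutation adjusted p = 0.0902). The first step also lost its call when day 21 library 1, 2 or 4, or any 1 day 30 library, was left out (0.0714 to 0.135). Without day 30 libraries 3 to 5 it was -0.24 (exact permutation adjusted p = 0.253), where 4 against 2 libraries are too few for any call. There was 1 COL11A1 per 4.45, 7.97 and 17.1 COL2A1 (exact permutation adjusted p = 0.0127 in all 3 pairs of days). For COL11A2 the numbers were 11.4, 14.3 and 24.2, with the first step not called (exact permutation adjusted p = 0.0802). The ratio of COL11A2 to COL11A1 went from 0.390 at day 21 to 0.559 and 0.704, and only day 45 against day 21 passed (exact permutation adjusted p = 0.0127). Within day 30 it was 0.468 and 0.389 in libraries 1 and 2 and 0.707, 0.681 and 0.624 in libraries 3 to 5. The log2 difference of day 30 from day 21 was 0.52 with all libraries and did not pass. Without those 3 it was 0.13, where no test of these days could pass. On expected counts without length, the day 30 difference in that ratio passed too (log2 0.57, exact permutation adjusted p = 0.0127).

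COL1A1, the collagen I chain of bone, skin and fibrous tissue, served as the contrast within each library. It differed by 0.36 ± 0.16 between days 45 and 21 on the log2 scale, which did not pass (edgeR adjusted p = 0.067). Without day 30 libraries 3 to 5 the COL1A1 difference was 0.34 and passed (edgeR adjusted p = 0.0384). On log2(TPM + 1) it was -0.03 (limma adjusted p = 0.893), where the median over all genes tested was -0.34. The COL2A1 to COL1A1 ratio in TPM was 5.45, 4.41, 5.51 and 5.86 at day 21 and 29.6, 23.0, 22.6, 24.2 and 12 at day 30. At day 45 it was 23.9, 17.4, 22.2, 19.1 and 27.9. Both later days were above day 21 in every library (geometric means 5.28, 21.4 and 21.8, exact permutation adjusted p = 0.0127 for each against day 21), and they overlapped each other (exact permutation p = 0.96). Of the 24 ratio tests, 17 passed. With 4 or 5 libraries a group the smallest p is 0.00794. With day 45 library 1 placed at day 30, days 45 and 21 have 4 libraries each, the smallest p is 0.0286 and no ratio test passed, though the differences between those days stayed near their size: COL9A3 to COL9A2 was 1.55 in place of 1.58 on the log2 scale, COL11A1 to COL2A1 -1.85 in place of -1.94 and COL2A1 to COL1A1 2.01 in place of 2.05 (exact permutation adjusted p = 0.0527 for each). Between days 45 and 30 several differences shrank with that placement. COL9A3 to COL9A2 was 0.78 in place of 1.01 (exact permutation adjusted p = 0.0762). COL11A1 to COL2A1 was -0.76 in place of -1.10 and COL9A1 to COL2A1 -0.61 in place of -0.95 (exact permutation adjusted p = 0.0807 and 0.0902). COL9A2 to COL9A1 was -1.11 in place of -1.17 (0.0527). Without day 30 libraries 3 to 5, day 30 keeps 2 libraries. The smallest p of day 30 is then 0.0476 against day 45 and 0.0667 against day 21, so no test of day 30 against day 21 could pass. With those libraries left out 7 tests passed, all of day 45 against day 21.

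**Figure D4:**
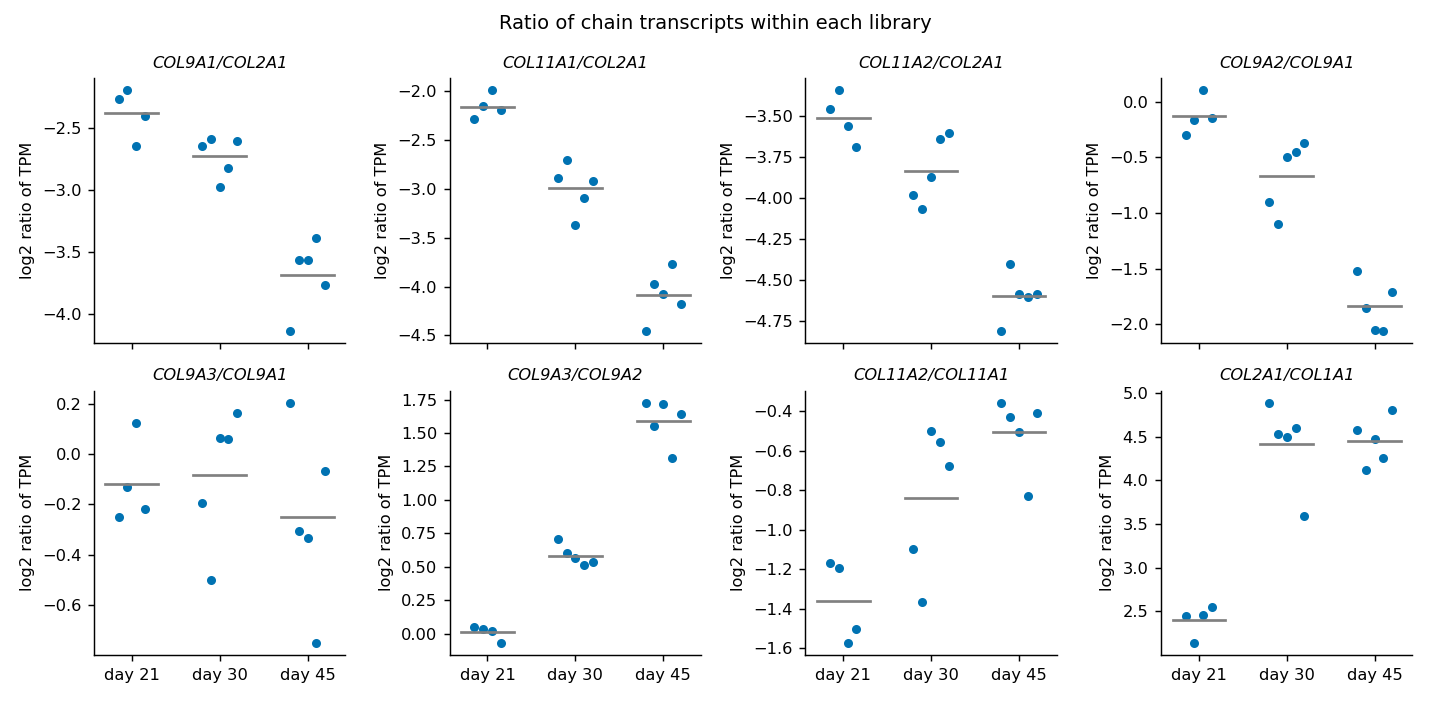
Log2 of the TPM ratio between chain genes in each library (points) by day, with group means as grey lines and a separate axis range per panel. With libraries placed by title, the COL9A3 to COL9A2 ratio forms 3 separate ranges, while COL9A3 to COL9A1 overlaps across all days.

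RSEM gives each gene an effective length, the mean of its transcripts weighted by their estimated share, so a shift in isoform use moves it. With each library's overall shift removed, COL2A1 measured 4525, 4508, 4517 and 4588 bases at day 21. It was 4397, 4425, 4332, 4341 and 4248 bases at day 30, and 4476, 4513, 4516, 4589 and 4521 bases at day 45. Day 30 lay below both other days without overlap (difference from day 21 of -186.1 bases, exact permutation adjusted p = 0.0357 over 18 tests, and 174.3 bases up to day 45 with the same adjusted p). Without day 30 libraries 3 to 5 the first difference was -123.8 bases (exact permutation adjusted p = 0.2). That test could not pass, as the smallest p for 4 against 2 libraries is 0.0667. COL11A2 ran from 5817 to 5879 bases in 11 libraries but was 5051, 4173 and 4931 bases in day 30 libraries 3, 4 and 5, the libraries whose counts move with transcript length. COL11A1 was longer at day 45 than at day 30 by 925.3 bases, and for COL9A2 the difference was -34.8 bases (exact permutation adjusted p = 0.0357 for each). None of the 4 passed with no shift removed, with day 45 library 1 placed at day 30, or without day 30 libraries 3 to 5, although the COL11A1 difference was then 901.0, 784.2 and 906.4 bases (exact permutation adjusted p = 0.0714, 0.0857 and 0.2). The COL9A2 difference was -59.1, -34.5 and -28.1 bases, and that of COL2A1 between days 45 and 30 was 150.0, 164.9 and 112.1 bases. Without day 30 libraries 3 to 5 the smallest p against day 45 is 0.0476 before adjustment over the 18 tests, so a lost call there says little.

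**Figure D5:**
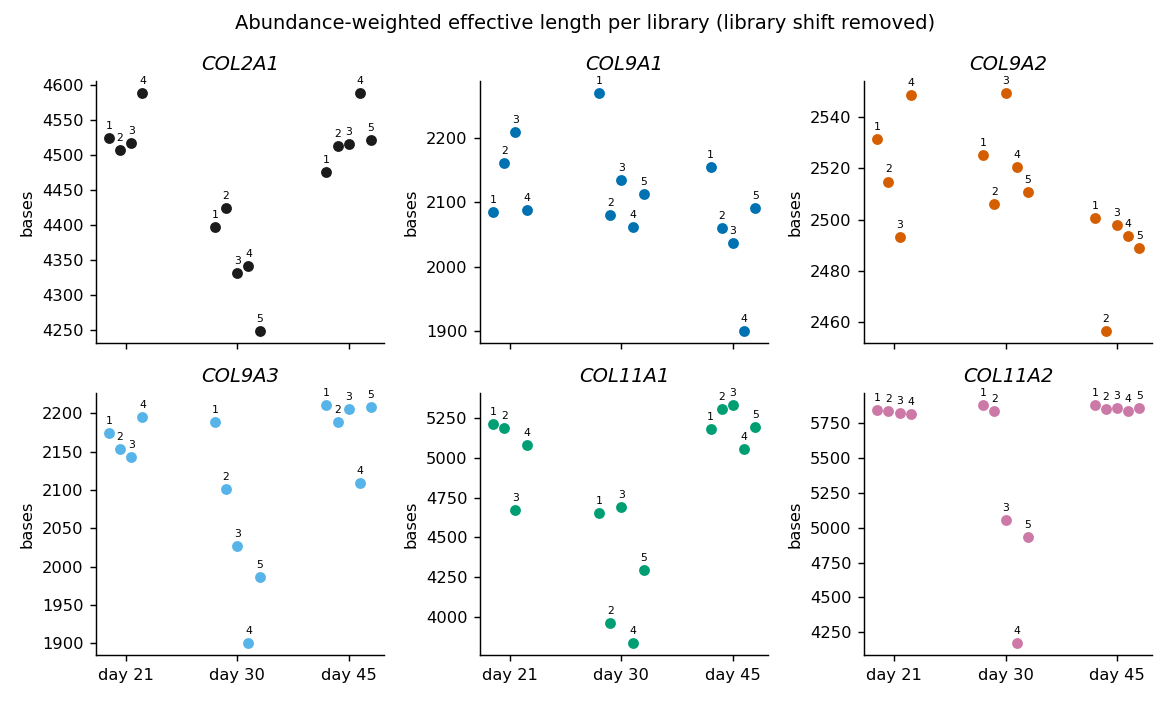
Effective transcript length in bases, library shift removed, for each collagen gene by library (points with replicate number) and day; axes do not start at 0 and differ between panels. COL11A2 is between 5817 and 5879 in 11 libraries and lower in day 30 libraries 3, 4 and 5; COL2A1 is lower at day 30.

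Profiles over the 14 libraries were compared by the root mean square (RMS) difference of centred log2 CPM, so that a small value means a like course. Between the collagen genes the most alike pair was COL9A1 and COL9A3 at 0.215, followed by COL9A1 and COL11A2 at 0.226. COL2A1 and COL9A2 were the least alike pair, at 1.29. Among 9138 other genes with a mean of at least 10 CPM, the nearest to COL2A1 was MATN3 at 0.15, a cartilage matrix protein, which averaged 518.8, 2123 and 3400 CPM on the 3 days. The nearest to COL9A2 were MATN4 (0.246), CHADL (0.253) and TACC3 (0.289), and each was highest at day 30. COL9A1 had CSGALNACT1 (0.22), ITIH6 (0.238) and PRX (0.246) nearest, and COL9A3 had PRX (0.255), COL16A1 (0.259) and PDCD6 (0.275). NCAM1 (0.181), EDIL3 (0.217) and LAMB2 (0.223) were nearest to COL11A1, and C17orf107 (0.185), PRX (0.2) and CPE (0.232) to COL11A2. LRATD1 (0.242) and ITIH5 (0.248) followed MATN3 for COL2A1.

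Regulators and partners of the fibrils were tested in lists chosen with results of these data known, and each edgeR count stands beside the same shares of all genes given above. Counts and values on log2(TPM + 1) for day 45 against day 21 stand beside that scale's own median of -0.34 and 19.7% of calls higher. SOX9, the master regulator of chondrocytes, rose by 0.79 ± 0.14 on the log2 scale by day 45 (edgeR adjusted p = 0.000141), from 381.7 ± 45.5 CPM (SD, n = 4) to 661.5 ± 34.0 (n = 5). On log2(TPM + 1) its change was 0.35 and did not pass (limma adjusted p = 0.0825). SOX5 and SOX6, partners of SOX9, are named after their values were seen. SOX5 fell by 1.04 ± 0.24 between days 21 and 30 (edgeR adjusted p = 0.00175), and by 0.47 without day 30 libraries 3 to 5 (edgeR adjusted p = 0.0146). SOX6 fell by 0.54 ± 0.15 (edgeR adjusted p = 0.00594), but without those libraries its difference was -0.17 and with the length correction 0.02, and neither passed (edgeR adjusted p = 0.212 and 0.872). At day 45 against day 21 SOX5 and SOX6 gave -0.26 ± 0.24 and -0.22 ± 0.15, which did not pass (edgeR adjusted p = 0.376 and 0.22); without those libraries both were called lower (-0.28 and -0.24, edgeR adjusted p = 0.0354 and 0.0176).

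Of 8 other fibrillar collagen genes, 1 was higher, 3 were lower and 4 were not called at day 45 against day 21, with a median log2 change of -0.23 where the 6 cartilage genes had 1.08. Higher and lower counts were 2 and 5 without day 30 libraries 3 to 5, 0 and 3 with day 45 library 1 placed at day 30, and 0 and 5 on log2(TPM + 1). COL24A1 fell by 2.65 ± 0.15 (edgeR adjusted p = 1.7e-10) and COL5A2, a collagen V chain, by 1.01 ± 0.14 (7.96e-06), while COL5A1, the other main collagen V chain, rose by 0.54 ± 0.14 (0.00364). The COL5A1 call was lost with day 45 library 1 placed at day 30 (0.46, edgeR adjusted p = 0.184) and on log2(TPM + 1) (0.02, limma adjusted p = 0.903). Of 7 other fibril-associated collagen genes, 2 were higher, 3 lower and 2 not called, and on log2(TPM + 1) 1 was higher and 4 lower. COL22A1 went from 141.8 ± 12.5 CPM at day 21 to 27.36 ± 5.51 and 3.10 ± 1.07, a log2 change of -5.51 ± 0.21 (edgeR adjusted p = 3.88e-12). COL14A1 fell by 1.82 ± 0.21 (1.51e-06), and COL19A1 rose by 1.48 ± 0.17 (1.19e-06).

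The fibril-bound proteins, which coat or bridge collagen fibrils, had 7 of 11 genes higher, 2 lower and 2 not called at day 45 against day 21. On log2(TPM + 1) 7 were higher and 4 lower. COMP, which binds collagens II and IX, rose by 4.96 ± 0.30 (edgeR adjusted p = 4.72e-10), PRELP by 2.30 ± 0.15 (9.28e-10) and MATN3 by 2.71 ± 0.19 (2.1e-09). Between days 30 and 45, when the collagen IX genes fell, 5 of these 11 were higher, 5 lower and 1 not called. With day 45 library 1 placed at day 30, that comparison gave 1 higher, 4 lower and 6 not called.

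Of 19 genes for chain folding and processing, 10 were higher, 3 lower and 6 not called at day 45 against day 21, and on log2(TPM + 1) 7 were higher and 8 lower. P4HA2, a subunit of the prolyl hydroxylase that stabilises the triple helix, rose by 2.39 ± 0.12 (edgeR adjusted p = 5.53e-11). ADAMTS2, which removes procollagen N-propeptides, rose by 2.90 ± 0.23 (1.87e-08), and LOX, which forms crosslinks, by 1.91 ± 0.19 (1.41e-07). Of 7 collagen receptor genes, 2 were higher, 2 lower and 3 not called, with 3 lower without day 30 libraries 3 to 5 and 1 lower with day 45 library 1 placed at day 30. On log2(TPM + 1) 1 receptor gene was higher and 3 lower. DDR1 rose by 1.49 ± 0.13 (edgeR adjusted p = 4.78e-08) and ITGA10, a collagen II-binding integrin subunit of chondrocytes, by 0.49 ± 0.10 (0.000351), while ITGA2 fell by 1.49 ± 0.22 (2.13e-05). On log2(TPM + 1) ITGA10 was -0.13 (limma adjusted p = 0.281), where the median over all genes tested was -0.34. Among 5 collagenase genes, MMP8 had no counts at day 21, day 30 or day 45 and was not tested, 3 were higher and 1 lower. With day 45 library 1 placed at day 30, and also on log2(TPM + 1), 1 was higher, 1 lower and 2 not called. MMP1 rose by 1.59 ± 0.21 (edgeR adjusted p = 4.06e-06) but averaged at most 5.12 CPM, MMP13 rose by 0.61 ± 0.24 (0.0346), and CTSK, a cathepsin that also cleaves collagen, fell by 1.94 ± 0.25 (4.55e-06). The MMP13 call was lost with day 45 library 1 placed at day 30 (0.47, edgeR adjusted p = 0.202) and without day 30 libraries 3 to 5 (0.60, edgeR adjusted p = 0.105).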

How the data were processed

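Whole-pellet RNA of 14 libraries was sequenced. Per the submitters' processing notes, reads were handled with STAR 2.4.2a and RSEM 1.2.25 on GRCh38; the annotation they used is not given in the sources here. Per the labels, the library kit was TruSeq RNA v2. Per the file headers, each table holds a length, an effective length, the expected count, TPM and FPKM per gene as the authors deposited them; FPKM was not used. A symbol was matched to 60333 of the 60587 identifiers, and GENCODE 29 held 58400.

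Expected counts were rounded, genes kept by filterByExpr (17838), libraries scaled by TMM, and 1 model with a mean per day fitted over all 14 libraries with edgeR 4.0.16 (R 4.3.3), robust quasi-likelihood F-test, Benjamini-Hochberg adjustment over all genes tested, threshold 0.05. The SE is the log2 fold change divided by the square root of F. limma 3.58.1 and DESeq2 1.42.0 were alternatives. The fit was tested on simulated counts. CPM was computed from the deposited expected counts. Log2 ratios of the deposited TPM used a pseudocount of 0.1. The 24 ratio and 18 length tests were exact two-sided permutation tests, coded directly in Python 3.11.15 with numpy 2.4.6 and adjusted within each kind.

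The members, lists and tests were chosen with earlier results of these data known; the alternatives for the lists were added after seeing the data. Named were all 6 members, up to 3 called genes per list with the smallest adjusted p for day 45 against day 21, COL1A1, SOX9, and the 3 nearest profiles per member. Same-numbered libraries of different days deviated with correlations of -0.25 to 0.12 in 13 pairs, 2 of them over 0.1, so numbers were not used to pair samples. No replicate pair agreed within sampling noise (chi-square per degree of freedom 7.75 to 163.6).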

Additional observations from a re-analysis of the deposited data

Results flagged for a closer look

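In 60 groups of 4 or 5 libraries (level and effective length of the 6 genes and chain ratios, by day), 3 held a library far from the others by Dixon's criterion, where chance gives about 1 in 20. COL2A1 in day 45 replicate 1 read 235090 CPM, and the other 4 day 45 libraries lay between 136100 and 163560 (Dixon ratio 0.723, critical value 0.71); this library carries the treatment label of 30 days. COL9A2 had an effective length of 2456.7 bases in day 45 replicate 2, with the others from 2489.0 to 2500.8. COL9A3 had 2109.1 bases in day 45 replicate 4, with the others from 2188.2 to 2210.8.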

How the results depend on the processing

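No call or value of the 6 genes reversed in edgeR, DESeq2 or limma under the alternatives run: of 264 values with other scaling, filters, tools, placements or offsets, 251 kept their side of the threshold, 7 gained a call and 6 lost one, and of 336 leave-one-out values 329, 3 and 4. The count of genes lower at day 45 than at day 30 was 5 in place of 3 without day 30 libraries 3 to 5 and with the length offset. With a replicate block, 6, 6, 3 and 6 genes were called for days 45 against 21, 30 against 21, 45 against 30 and the later minus the earlier change, so it changed no call of a gene. The replicate block left 0 ratio and 0 length calls (the length block was chosen after seeing the data), where the smallest p with 4 pairs is 0.125 and with 5 pairs 0.0625. Ratio calls (17) fell to 0 with day 45 replicate 1 placed at day 30 and to 7 without day 30 libraries 3 to 5, and leave-one-out gave 15 to 17. Length calls (4) fell to 0 with no shift removed, with day 45 replicate 1 at day 30 and without day 30 libraries 3 to 5, and leave-one-out gave 0 to 5. Without those 3 libraries the smallest p is 0.0476 for 5 against 2 libraries and 0.0667 for 4 against 2, in ratio and length tests alike. Values that changed sign were uncalled throughout. The COL9A3 to COL9A1 ratio (log2) for day 30 against 21 was -0.046 on counts, -0.024 with the replicate block and -0.229 without day 30 libraries 3 to 5 (-0.024 to 0.143 in leave-one-out), and for day 45 against 30 was 0.099 without them. COL2A1 to COL1A1 for day 45 against 30 was -0.034 with day 45 replicate 1 at day 30 and -0.262 without day 30 libraries 3 to 5 (-0.181 to 0.143). Effective length, day 30 against 21, moved to 15.1 with no shift removed and 39.3 without day 30 libraries 3 to 5 for COL9A1 and 0.9 with the replicate block (-38.5 to 20.2), to -3.3 and -6.4 for COL9A2 with replicate 1 placed at day 30 and without those libraries (-9.3 to 9.2), and to 26.0 for COL11A2 without them. COL2A1 for day 45 against 21 was 0.0 with replicate 1 at day 30 (-28.3 to 6.1). The cause of these shifts was not tested.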
